A study of Bos taurus with 6 samples.

Results

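The 10 genes described here encode laminin chains and the proteins that link laminin to the rest of the basement membrane: LAMA2, LAMA4, LAMA5, LAMB1, LAMB2, LAMC1, NID1, NID2, HSPG2 and AGRN. They were chosen by gene symbol, and all 10 were found among the 17663 genes of the table. RNA was measured in fetal fibroblasts (bEFs), connective tissue cells cultured from cattle fetuses. The FT group was made up of cells from 3 fetuses with fat-1, a nematode gene for a desaturase that turns n-6 into n-3 polyunsaturated fatty acids, and the WT group of cells from 3 Luxi cattle fetuses without it (wild-type). All fetuses were 50–60 days old, and 1 poly(A) library was made per fetus (named FT_1, FT_2, FT_3, WT_1, WT_2 and WT_3). The comparison asks which RNA levels differ between cells with and without the transgene. The protocol in the labels speaks of RNA of an adipose type, where the sample names and the study say fibroblasts, and this conflict was not resolved. The promoter that drives fat-1 is not given in the sources used here, and its own RNA was not analysed here, so the labels were not checked against it.

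Basement membranes are thin sheets of matrix on which epithelia, vessels, muscle fibres and nerves rest. A laminin is a trimer of an alpha, a beta and a gamma chain, in which the alpha chain carries most of the sites for cell receptors. Nidogens bridge the laminin gamma 1 chain to type IV collagen, perlecan and agrin are large proteoglycans that bind laminin and growth factors, and fibroblasts secrete several of these proteins toward neighbouring cells.

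The total count was 63366834, 48167642 and 54204446 in FT_1, FT_2 and FT_3, and 69777641, 51310741 and 54271927 in WT_1, WT_2 and WT_3. FT_1 stood apart from the other FT libraries. Of all tested genes, 22.3% differed by more than 1 log2 unit between FT_1 and FT_2 and 22.8% between FT_1 and FT_3, against 4.87% for the pair of FT_2 and FT_3 and 3.96–4.96% for pairs of WT libraries. The 10 genes differed by at most 0.16 log2 units between FT_2 and FT_3, and by as much as 5.73 between FT_1 and FT_2. The fold changes of the 10 genes are therefore given with all 6 libraries and without FT_1. Each library was taken as a separate sample from the description of the study, which was not tested. By mean chi-square per gene FT_2 and FT_3 (11.7) were closer to each other than any WT pair (20.2–36.1), though not by the share of genes above, and every value without FT_1 rests on this pair.

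Markers of the labelled cell type were abundant in all 6 libraries. The 8 fibroblast markers summed to an FPKM (fragments scaled by gene length and library total) of 6753, 16892 and 16609 in FT_1, FT_2 and FT_3, and 17685, 17160 and 17232 in WT_1, WT_2 and WT_3. FT_1 had the lowest sum, with an FPKM of 914 for COL1A1 against 2212–2689 in the other libraries. The sums hide differences between single markers. VIM was at 1244, 3850 and 4171 in FT_1, FT_2 and FT_3 against 7312–8178 in WT cells, while DCN was at 1803, 4092 and 3769 in FT_1, FT_2 and FT_3 against 2054–2299. All 7 epithelial markers were in the table, and their sum was 158, 11.9 and 13.0 in FT_1, FT_2 and FT_3, and 10.4, 8.05 and 14.2 in WT_1, WT_2 and WT_3. CDH1, the gene of epithelial cadherin, made up most of the sum in FT_2, FT_3 and WT cells (7.11–13.9) and was at 36.3 in FT_1. In FT_1 the most abundant was the keratin gene KRT8 (84.1, 0.95 and 0.61 in FT_1, FT_2 and FT_3 and 0 in each WT library), and the defining marker EPCAM was at 0.57 in FT_1 and at 0 in the other 5 libraries. Of these 7 markers 6 were highest in FT_1, and the other, CLDN4, was at 3.39–3.82 in all FT libraries and at 0.09–0.33 in WT cells. Of 6 mesothelial markers 5 were in the table, and their sum, almost all from MSLN, was 207, 45.1 and 46.3 in FT_1, FT_2 and FT_3 against 2.37–3.51 in WT cells. WT1, which defines mesothelium, was at 0 in all FT libraries. The part of such cells in the results was not tested, and in bulk RNA more cells of a type and more RNA per cell cannot be told apart.

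Endothelial, Schwann and skeletal muscle cells, which also make basement membrane, had low marker sums. The 7 endothelial markers in the table summed to at most 1.56 in any library, with KDR at 0 in all FT libraries and CLDN5 at 0 in 5 of 6. Of the 6 Schwann cell markers 3 were in the table, led by S100B, with sums of 13.1, 5.86 and 4.31 in FT_1, FT_2 and FT_3 against 9.14–9.95 in WT cells. Of the 6 skeletal muscle markers 3 were in the table, with sums of 5.77, 4.62 and 3.78 against 1.14–1.93, most of it DES in FT cells, while MYF5 was lower there (0.03, 0.59 and 0.61 against 1.06–1.93) and CHRNA1 did not exceed 0.02. These sums were small beside those of fibroblast genes, but sums over different genes do not measure shares of cells. The 8 smooth muscle and pericyte markers, led by ACTA2 or TAGLN, summed to 2299, 3592 and 3472 in FT_1, FT_2 and FT_3 against 1131–1262 in WT cells, without overlap. The 5 leukocyte markers in the table, led by LAPTM5 in WT cells, summed to 5.17, 10.3 and 9.78 in FT_1, FT_2 and FT_3 against 23.1–24.7, and the 5 adipocyte markers, led by FABP4 in WT cells, to 1.52, 10.9 and 11.9 against 132–147. The sum of the smooth muscle list was thus higher and those of the leukocyte and adipocyte lists were lower in all FT libraries, but single markers went the other way. CSPG4, of the smooth muscle and pericyte list, was lower in FT cells (2.46–3.21 against 9.39–11.3, edgeR adjusted p = 0.0011), and RGS5 was at 0.03 in FT_1 but at 8.49 and 7.88 in FT_2 and FT_3 against 4.21–5.15 in WT cells. LEP, of the adipocyte list, was higher in FT_2 and FT_3 (4.91 and 4.45 against 0.02–0.09), and PLIN1 differed little (1.31–1.49 against 1.23–1.27). The part of such cells in the results was not tested.

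Together the 10 genes took a larger share of the RNA in FT cells, and those of perlecan, nidogen-2, laminin alpha 5 and agrin were called higher. They held 0.617%, 0.425% and 0.447% of all counts in FT_1, FT_2 and FT_3, against 0.255%, 0.232% and 0.276% in WT_1, WT_2 and WT_3. Every FT library lay above every WT library. With edgeR's quasi-likelihood test and Benjamini-Hochberg adjustment over 13482 genes (called at an adjusted p under 0.05), 4 of the 10 were higher in FT cells, where 20.1% of all tested genes were, and 0 were lower, where 18.9% were. The count of lower members was also 0 at an unadjusted p under 0.05 in edgeR, limma and DESeq2. The 4 called members were LAMA5, NID2, HSPG2 and AGRN.

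Without FT_1 the call covered more members. Then 8 of the 10 were higher (30.6% of 13765 genes were) and 0 were lower (31.5% of genes were), LAMA4 and LAMC1 being the 2 not called. The FPKM values of 5 members lay above WT in every FT library, against 21.8% of all tested genes, and 0 lay below, against 36.9%. FT_1 differed by more than 1 log2 unit from the mean of FT_2 and FT_3 in 6 members, 4 of them above it (11.2% of all tested genes) and 2 below it (11.0% of genes). The median log2 fold change was 1.01 over the members and 0.03 over all tested genes, and without FT_1 it was 1.12 and -0.02.

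How many genes were called depended on the scaling and on single libraries. Over all genes, 2714 were higher and 2547 lower, so 51.6% of calls were higher, but the share was 37.6% with library totals in place of edgeR's TMM scaling and 34.0% with limma on log2(FPKM + 1). The median log2 fold change of all genes moved by -0.15 with library totals and by -0.16 with limma on log2(FPKM + 1). That limma fit also changed the test and the set of genes (12247 against 13482), so its values cannot be put down to scaling alone. With limma on median-ratio scaled FPKM, 2523 genes were higher and 2639 lower. The counts of higher and lower genes were 4215 and 4337 without FT_1, 1516 and 1531 without WT_1, 1613 and 1570 without WT_2, and 1796 and 1741 without WT_3. LAMA5, NID2 and HSPG2 were called in each of these fits.

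**Figure D1:**
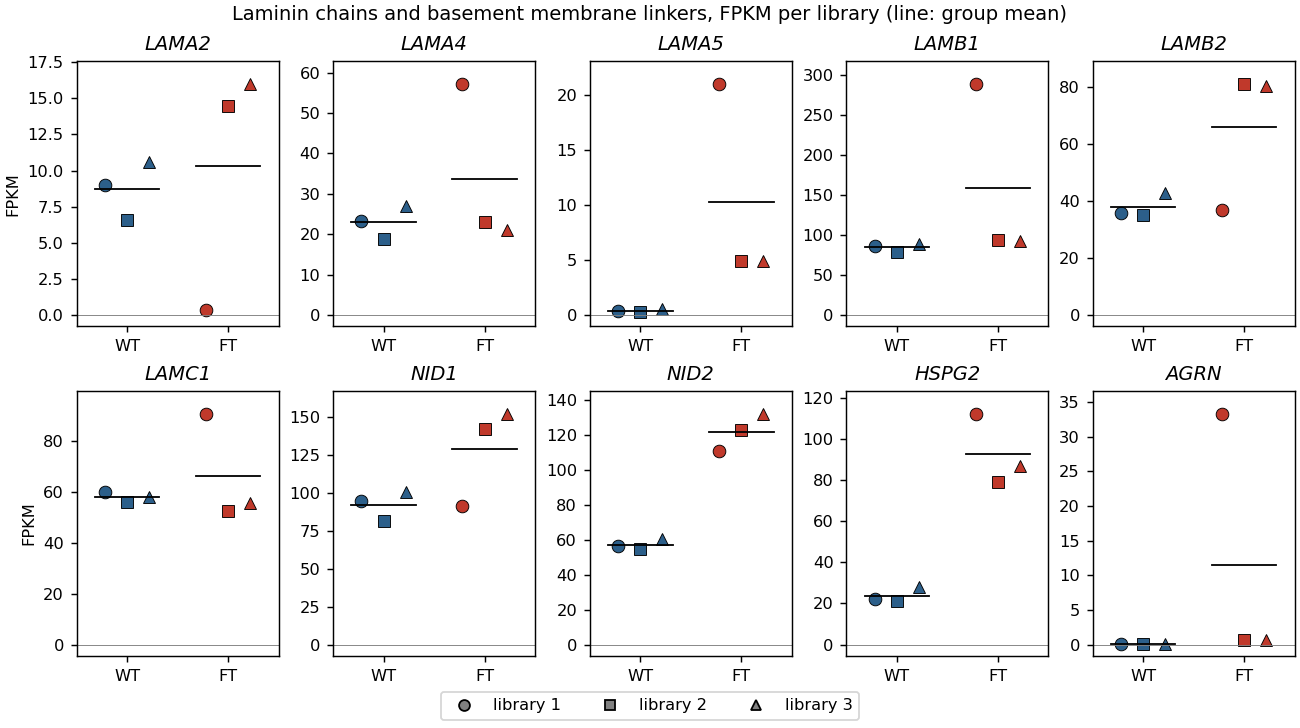
FPKM (vertical axes, linear) of the 10 genes in each WT (blue) and FT (red) library, with a line at each group mean. FT_1 (red circle) lies far from FT_2 and FT_3 for LAMA2 (0.37 against 14.5 and 16.0), LAMB1 (289 against 93.8 and 92.6) and AGRN (33.3 against 0.61 and 0.62), while the 3 FT values of NID2 and HSPG2 lie together above WT.

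The plot of FPKM by library shows members whose FT libraries moved together and members for which FT_1 went its own way. The alpha chains, which decide the receptors a laminin can bind, were of the latter kind. LAMA5 (ENSBTAG00000003061, chromosome 13, 54887682 to 54938873 in the authors' table, whose build is not named) encodes the alpha 5 chain of many epithelial and vascular basement membranes. Its FPKM was 21.0, 4.92 and 4.94 in FT_1, FT_2 and FT_3, and 0.36, 0.26 and 0.52 in WT_1, WT_2 and WT_3. All FT libraries were higher, FT_1 most of all, and the groups did not overlap. The mean FPKM was 10.3 ± 9.28 in FT and 0.38 ± 0.131 in WT cells (SD, n = 3 each). The log2 fold change was 4.89 (approximate standard error, SE, 0.74, edgeR adjusted p = 0.00438) and 3.86 without FT_1 (edgeR adjusted p = 3.52e-07).

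LAMA2 (ENSBTAG00000010229, chromosome 9, 67153459 to 67556512) encodes the alpha chain of muscle and nerve laminins, whose loss causes a congenital muscular dystrophy. Its FPKM was 0.37, 14.5 and 16.0 in FT_1, FT_2 and FT_3, against 9.01, 6.59 and 10.6 in WT_1, WT_2 and WT_3. FT_1 was the lowest of the 6 libraries while FT_2 and FT_3 were the highest, so the groups overlapped. The log2 fold change was 0.41 (SE 1.09, edgeR adjusted p = 0.792), and its sign turned to -0.43 in limma on log2(FPKM + 1) and to -0.070 in edgeR without FT_3. Without FT_1, LAMA2 was higher in FT cells by 0.97 (SE 0.16, edgeR adjusted p = 4.43e-04).

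LAMA4 (ENSBTAG00000008817, chromosome 9, 38176518 to 38331079), whose alpha 4 chain is typical of vessels and of mesenchymal cells, was the most abundant alpha chain in every library. Its FPKM was 57.1, 23.1 and 21.0 in FT_1, FT_2 and FT_3, against 23.2, 18.8 and 27.1 in WT_1, WT_2 and WT_3. FT_1 alone was high, and FT_2 and FT_3 lay within the WT range. LAMA4 had a log2 fold change of 0.70 (SE 0.40, edgeR adjusted p = 0.215) and 0.11 without FT_1 (adjusted p = 0.497), where limma on log2(FPKM + 1) gave -0.05.

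The beta chains split in the same way. LAMB1 (ENSBTAG00000011412, chromosome 4, 48985684 to 49062759) encodes the beta 1 chain, common in embryonic laminins, and its FPKM was 289, 93.8 and 92.6 in FT_1, FT_2 and FT_3, against 86.7, 78.6 and 89.3 in WT_1, WT_2 and WT_3. The groups did not overlap, but FT_2 and FT_3 lay close to WT_3 and FT_1 was far above. LAMB1 was not called with all libraries (log2 fold change 1.05, SE 0.46, edgeR adjusted p = 0.122). Without FT_1 the difference was smaller and was called (0.31, SE 0.07, edgeR adjusted p = 0.00368), but not in limma on log2(FPKM + 1) (0.14, adjusted p = 0.117).

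LAMB2 (ENSBTAG00000022635, chromosome 22, 50883645 to 50897890) encodes the beta 2 chain, found at the neuromuscular junction and in the kidney filter. Its FPKM was 36.7, 80.9 and 80.2 in FT_1, FT_2 and FT_3, against 35.8, 34.9 and 42.7 in WT_1, WT_2 and WT_3. Here FT_1 fell within the WT range, and FT_2 and FT_3 lay above it. Its log2 fold change of 0.97 was not called (SE 0.32, edgeR adjusted p = 0.0575), but without FT_1 LAMB2 was higher by 1.26 (edgeR adjusted p = 1.88e-06).

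LAMC1 (ENSBTAG00000011966, chromosome 16, 64062643 to 64183738) encodes the gamma 1 chain shared by most laminins. Its FPKM was 90.7, 52.5 and 55.7 in FT_1, FT_2 and FT_3, against 60.1, 56.1 and 58.2 in WT_1, WT_2 and WT_3. FT_1 was the highest library, and FT_2 and FT_3 the lowest. It had the smallest log2 fold change of the 10 genes in edgeR with all libraries (0.34, SE 0.21, edgeR adjusted p = 0.242) and without FT_1 (0.07, adjusted p = 0.388), where limma on log2(FPKM + 1) gave -0.10.

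Among the linkers, NID2 (ENSBTAG00000021945, chromosome 10, 44846568 to 44939145), the gene of nidogen-2, was higher in all 3 FT libraries and little affected by FT_1. Its FPKM was 110, 123 and 132 in FT_1, FT_2 and FT_3, against 56.3, 54.4 and 60.2 in WT_1, WT_2 and WT_3. The groups did not overlap, with a mean of 122 ± 10.7 in FT and 56.9 ± 2.94 in WT cells (SD, n = 3 each). NID2 rose by 1.25 on the log2 scale (SE 0.11, edgeR adjusted p = 0.00104) and by 1.33 without FT_1 (edgeR adjusted p = 3.26e-07).

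Its paralogue NID1 (ENSBTAG00000007244, chromosome 28, 8687268 to 8784180), the gene of nidogen-1, differed less. Its FPKM was 91.3, 142 and 152 in FT_1, FT_2 and FT_3, against 94.7, 81.2 and 100.3 in WT_1, WT_2 and WT_3. FT_1 lay within the WT range and the other FT libraries above it. NID1 was not called (log2 fold change 0.64, SE 0.22, edgeR adjusted p = 0.0629), but was higher by 0.85 without FT_1 (edgeR adjusted p = 2.62e-05). DESeq2 on all libraries called LAMB1, LAMB2 and NID1 as well (adjusted p = 0.0352, 0.0076 and 0.0165).

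The proteoglycan genes rose in FT cells, perlecan evenly and agrin very unevenly. HSPG2 (ENSBTAG00000017122, chromosome 2, 130906818 to 130976365) encodes perlecan, whose heparan sulfate chains hold growth factors in the matrix. Its FPKM was 112, 79.3 and 86.6 in FT_1, FT_2 and FT_3, against 22.2, 21.1 and 28.0 in WT_1, WT_2 and WT_3. Every FT library was well above every WT library, with means of 92.7 ± 17.3 in FT and 23.7 ± 3.73 in WT cells (SD, n = 3 each). HSPG2 rose by 2.12 on the log2 scale (SE 0.18, edgeR adjusted p = 0.00101) and by 1.97 without FT_1 (edgeR adjusted p = 5.41e-07).

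AGRN (ENSBTAG00000013191, chromosome 16, 51422628 to 51461967) encodes agrin, which clusters acetylcholine receptors at the neuromuscular junction in its neuronal form and occurs in other basement membranes. Its count was 17003, 236 and 273 in FT_1, FT_2 and FT_3, against 38, 14 and 35 in WT_1, WT_2 and WT_3, or an FPKM of 33.3, 0.61 and 0.62 against 0.07, 0.03 and 0.08. The groups did not overlap, but the level was substantial in FT_1 alone, the library with the high epithelial markers, and their part in it was not tested. The log2 fold change was 7.68 (SE 2.06, edgeR adjusted p = 0.0294) and 3.50 without FT_1 (edgeR adjusted p = 1.02e-05). The call was lost without WT_1, WT_2 or WT_3 (adjusted p = 0.108, 0.114 and 0.102 from edgeR), in limma with a pseudocount of 1 or 0.1 (0.208 and 0.0770) and in edgeR with a replicate block (0.0713). DESeq2 gave AGRN no adjusted p.

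**Figure D2:**
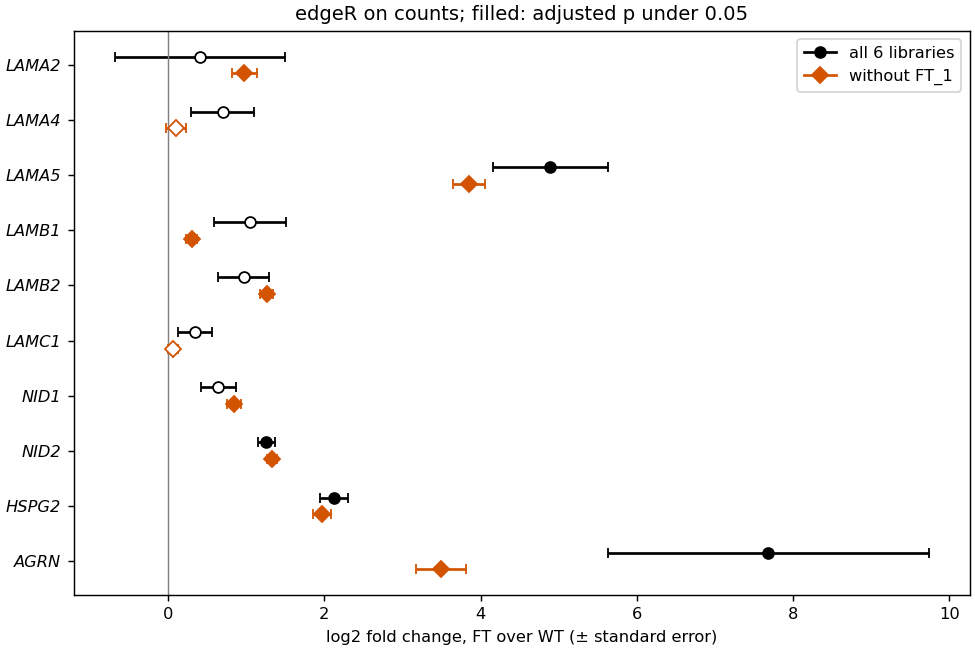
Log2 fold change of FT over WT cells from edgeR (horizontal axis, points) with an approximate standard error derived from the F statistic (bars). Values with all 6 libraries are black and those without FT_1 orange, filled where the adjusted p was under 0.05. HSPG2 (2.12 and 1.97) and NID2 (1.25 and 1.33) hardly moved when FT_1 was left out, whereas AGRN went from 7.68 to 3.50 and LAMA2 from 0.41 to 0.97, its sign being negative in limma with all libraries.

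The fold changes with and without FT_1 show that the standard error shrank in each member when that library was left out. Per length, the order of levels in WT cells was NID1 (mean FPKM 92.1 ± 9.81), LAMB1 (84.9 ± 5.55), LAMC1 (58.1 ± 2.02), NID2 (56.9 ± 2.94), LAMB2 (37.8 ± 4.27), HSPG2 (23.7 ± 3.73), LAMA4 (23.0 ± 4.14), LAMA2 (8.72 ± 2.01), LAMA5 (0.38 ± 0.131) and AGRN (0.06 ± 0.0265; SD, n = 3 for each). The means of NID1 and LAMB1, LAMC1 and NID2, and HSPG2 and LAMA4 did not differ beyond their spread between libraries. Within each WT library NID1 was still above LAMB1 (94.7 against 86.7, 81.2 against 78.6 and 100.3 against 89.3). The order within the other pairs changed between WT libraries. In FT_2 and FT_3 the nidogens led, with NID1 above NID2, followed by LAMB1. HSPG2 and LAMB2 came next at a like level, then LAMC1, LAMA4, LAMA2, LAMA5 and AGRN. HSPG2 thus stood above LAMC1 in FT cells and below it in WT cells. In FT_1 the order was LAMB1, HSPG2, NID2, NID1, LAMC1, LAMA4, LAMB2, AGRN, LAMA5 and LAMA2.

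Within each family the mix of chains differed between libraries. The alpha chain sum here is that of LAMA2, LAMA4 and LAMA5 and the beta chain sum that of LAMB1 and LAMB2, so LAMA3 and LAMB3 are left out. LAMA5 made up 26.7%, 11.6% and 11.8% of the summed alpha chain FPKM in FT_1, FT_2 and FT_3, against 1.01–1.36% in WT cells. LAMA2 made up 0.471%, 34.1% and 38.1% in FT_1, FT_2 and FT_3, against 25.7–27.7% in WT cells, and LAMA4 72.8%, 54.3% and 50.1% against 71.0–73.3%. FT_1 thus held almost no LAMA2 among its alpha chains, while FT_2 and FT_3 held more of it than WT cells did. LAMB2 was 11.3%, 46.3% and 46.4% of the beta chain FPKM in FT_1, FT_2 and FT_3, against 29.2–32.4% in WT cells, so FT_1 and the other FT libraries lay on opposite sides of WT. NID2 was 54.7%, 46.3% and 46.5% of nidogen FPKM in FT_1, FT_2 and FT_3, against 37.3–40.1% in WT cells, higher in every FT library.

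**Figure D3:**
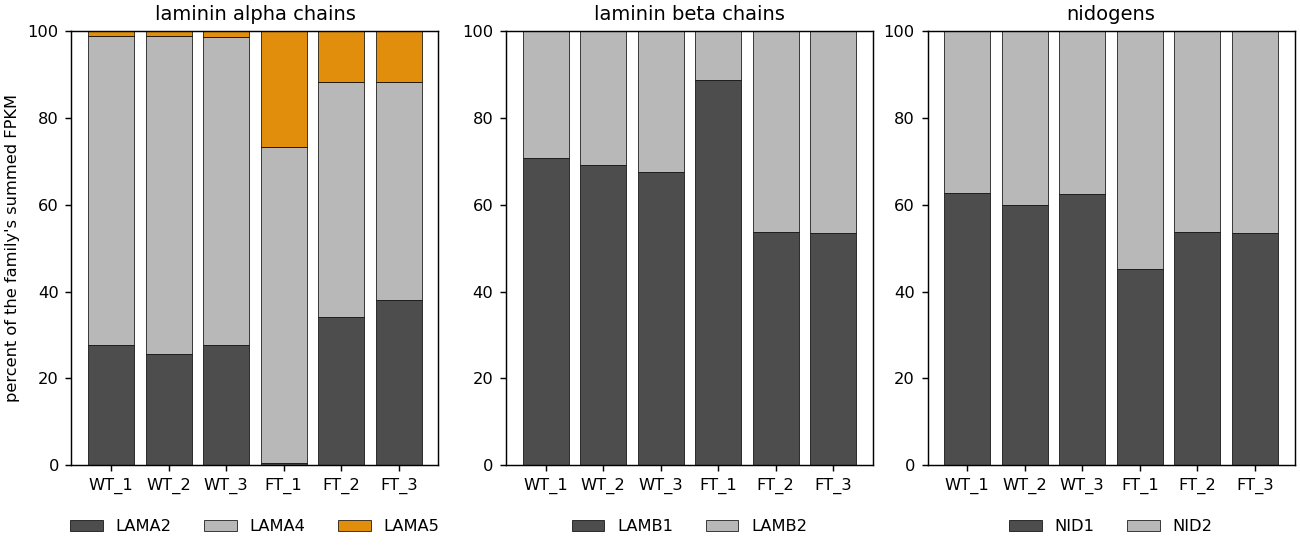
Share of each gene in its family's summed FPKM (vertical axis, percent) in the 6 libraries, for LAMA2, LAMA4 and LAMA5, for LAMB1 and LAMB2, and for the nidogens. LAMA5 (orange) reached 11.6–26.7% in FT against 1.01–1.36% in WT cells, and LAMB2 was 11.3% in FT_1 but 46.3% and 46.4% in FT_2 and FT_3.

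The stacked shares were put to a test as ratios within a library, in which the scaling between libraries cancels. Of 11 ratios of FPKM values, 8 did not overlap between groups, and each of these had a two-sided exact permutation p = 0.10, the smallest that 3 libraries against 3 allow (Benjamini-Hochberg adjusted 0.138 over the 11), so none could pass 0.05. Several of these ratios have a chain in common, so their p values are linked. HSPG2 over LAMC1, perlecan per laminin gamma 1, was 1.24, 1.51 and 1.55 in FT_1, FT_2 and FT_3 against 0.369, 0.376 and 0.481 in WT_1, WT_2 and WT_3, a mean log2 difference of 1.81. The summed beta chains over LAMC1 were 3.59, 3.33 and 3.10 in FT_1, FT_2 and FT_3 against 2.04, 2.03 and 2.27 in WT_1, WT_2 and WT_3. Beta chain RNA was thus higher relative to gamma 1 in every FT library, FT_1 included. The summed alpha chains over LAMC1 were 0.866, 0.810 and 0.752 against 0.541, 0.458 and 0.656. The log2 difference was 4.04 for LAMA5 over LAMA4, 5.41 for LAMA5 over LAMA2, 0.64 for NID2 over NID1 and 5.25 for AGRN over LAMC1, all higher in FT cells, and -3.44 for HSPG2 over AGRN. Without FT_1 these differences were 3.80, 2.92, 0.48, 3.58 and -1.66, that of HSPG2 over LAMC1 was 1.92, and those of the summed beta and alpha chains over LAMC1 went from 0.66 and 0.57 to 0.61 and 0.52. With 1 added to each FPKM, the difference was -0.16 for HSPG2 over AGRN, which then overlapped (exact permutation p = 1), 1.93 for AGRN over LAMC1, 2.34 for LAMA5 over LAMA4 and 3.17 for LAMA5 over LAMA2.

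The other 3 ratios overlapped, and in each FT_1 lay on the far side of WT from FT_2 and FT_3. LAMA4 over LAMA2 was 154, 1.59 and 1.31 in FT_1, FT_2 and FT_3 against 2.56–2.86 in WT cells (exact permutation p = 1), and its mean log2 difference turned from 1.37 to -0.88 without FT_1. LAMB2 over LAMB1 was 0.127 in FT_1 and 0.863 and 0.865 in FT_2 and FT_3 against 0.413–0.478 (exact permutation p = 1). The summed nidogens over LAMC1 were 2.22 in FT_1 and 5.05 and 5.09 in FT_2 and FT_3 against 2.42–2.76 (exact permutation p = 0.40, adjusted 0.489).

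The remaining laminin chains summed to an FPKM of 72.0 in FT_1, against 7.85 and 8.02 in FT_2 and FT_3 and 4.26–5.61 in WT cells. Of 6 listed genes 5 were in the table and 4 were tested. edgeR called 1 of these higher and 0 lower, where 20.1% and 18.9% of all tested genes were. The called gene was LAMC3, the gamma 3 chain, with an FPKM of 0.49, 3.63 and 3.40 in FT_1, FT_2 and FT_3 against 0.03–0.06 in WT cells (log2 fold change 5.85, SE 0.90, edgeR adjusted p = 0.00465). LAMA3 and LAMB3, chains found in epidermal laminin, were singled out after their values were seen. Their FPKM in FT_1 was 12.0 and 24.9, against 2.93–4.48 and 0.57–1.14 in the other 5 libraries. Both were high in FT_1, the library with the high epithelial markers, and neither was called with all 6 libraries (edgeR adjusted p = 0.313 and 0.10).

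**Figure D4:**
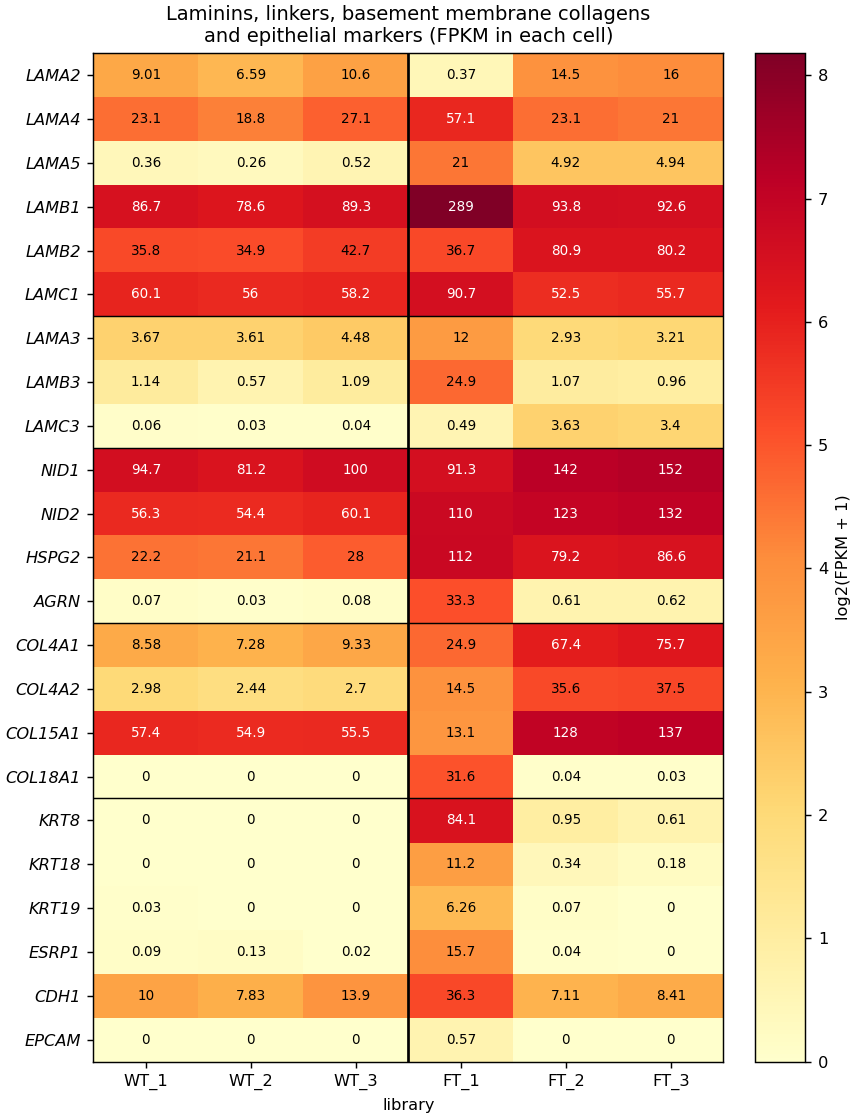
FPKM printed in each cell, with colour as log2(FPKM + 1), for laminin chains, linkers, basement membrane collagens and 6 epithelial markers (rows) in the 3 WT and 3 FT libraries (columns). FT_1 alone was high in LAMB3 (24.9), AGRN (33.3), COL18A1 (31.6) and KRT8 (84.1), while COL4A1 and COL4A2 were highest in FT_2 and FT_3.

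Type IV collagen forms the second network of the basement membrane, to which nidogens tie laminin. COL4A1 had an FPKM of 24.9, 67.4 and 75.7 in FT_1, FT_2 and FT_3, against 8.58, 7.28 and 9.33 in WT_1, WT_2 and WT_3, and COL4A2 had 14.5, 35.6 and 37.5 against 2.98, 2.44 and 2.70. Both rose in every FT library, least in FT_1 (log2 fold changes 2.90 and 3.59, standard errors 0.44 and 0.40, adjusted p = 0.00445 and 0.00182 from edgeR), and by 3.26 and 3.92 without FT_1. These fold changes were above those of LAMB1, LAMB2 and LAMC1, and the heat map sets the levels side by side. COL15A1 and COL18A1, singled out after their values were seen, encode collagens with endostatin-like ends at the basement membrane zone. COL15A1 was at 13.1, 128 and 137 in FT_1, FT_2 and FT_3 against 54.9–57.4 in WT cells, and COL18A1 was at 31.6, 0.04 and 0.03 in FT_1, FT_2 and FT_3 and listed at 0 in WT cells. Neither was called with all 6 libraries (edgeR adjusted p = 0.394 and 0.117), and both were called higher without FT_1. Of the 8 listed collagens 5 were in the table and 4 were tested. With all 6 libraries 2 were called higher and 0 lower, where 20.1% and 18.9% of all tested genes were.

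Around these genes, 8 lists held 119 genes, of which 104 were in the table and 96 were tested. edgeR called 40 higher, 8 lower and 48 neither, against 20.1% and 18.9% of all tested genes, and the median log2 fold change was 0.69 against 0.03. Without FT_1, 59 of the 96 were higher and 22 lower, against 30.6% and 31.5% of all tested genes. Over all listed genes, 25 were higher and 3 lower without WT_1, 25 and 3 without WT_2, and 27 and 3 without WT_3. Rises outnumbered falls in each of these fits. Of the 5 lists with 0 lower genes in edgeR, the matrix partners had 1 lower at an unadjusted p under 0.05 and 1 called lower in each of limma and DESeq2, the heparan sulfate genes had 1 called lower in limma, and the other 3 lists had 0 by each of these counts among the genes edgeR tested. MUSK, a receptor gene with too few counts for edgeR with all 6 libraries, was called lower in DESeq2 (adjusted p = 0.0213).

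Among matrix partners and crosslinkers, 8 of 13 tested genes rose and 0 fell, where 20.1% and 18.9% of all tested genes did. Without FT_1 the counts were 12 and 1, against 30.6% and 31.5% of all tested genes. SMOC2, a calcium-binding matrix protein, had an FPKM of 4.10, 24.2 and 22.5 in FT_1, FT_2 and FT_3 against 0.83–1.11 in WT cells. PXDN, the peroxidase that forms sulfilimine bonds in type IV collagen, rose by 1.20 on the log2 scale (SE 0.09, edgeR adjusted p = 8.52e-04), and LOXL2, a lysyl oxidase that crosslinks the same collagen, by 1.63 (SE 0.21, edgeR adjusted p = 0.00261). Both were higher in all 3 FT libraries.

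Among laminin and perlecan receptors, 9 of 16 tested genes rose and 0 fell, where 20.1% and 18.9% of all tested genes did. Without FT_1 the counts were 11 and 4, against 30.6% and 31.5% of all tested genes. BCAM, a receptor for the laminin alpha 5 chain, had an FPKM of 20.1, 10.5 and 11.1 in FT_1, FT_2 and FT_3 against 1.18, 1.12 and 0.93 in WT_1, WT_2 and WT_3. It rose by 3.84 on the log2 scale (SE 0.30, edgeR adjusted p = 8.27e-04), in the same libraries as LAMA5. DAG1, the gene of dystroglycan, which binds laminin, perlecan and agrin, was at an FPKM of 40.0, 54.5 and 64.8 in FT_1, FT_2 and FT_3 against 21.6–26.6 in WT cells and was called higher (edgeR adjusted p = 0.00488), and the syndecan gene SDC2 rose by 1.01 (SE 0.17, edgeR adjusted p = 0.00697). The integrin genes ITGA6 and ITGB4, singled out after their values were seen, encode the receptor of hemidesmosomes. They were at 75.7 and 40.9 in FT_1 against 6.46–18.4 and 0.24–0.65 in the other libraries, and were not called (edgeR adjusted p = 0.460 and 0.0618). Without FT_1, ITGA6 was called lower and ITGB4 higher (-1.17 and 1.06).

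In the dystroglycan complex edgeR called 1 of 12 tested genes higher and 3 lower (3 and 5 without FT_1), where 20.1% and 18.9% of all tested genes were (30.6% and 31.5% without FT_1). The sarcoglycan gene SGCB had an FPKM of 14.4, 28.5 and 27.3 in FT_1, FT_2 and FT_3 against 51.0–56.1 in WT cells. It was lower in every FT library (log2 fold change -1.02, edgeR adjusted p = 0.0280), without FT_1 by -0.76 (still called). Its call was lost without WT_1 (edgeR adjusted p = 0.0920), WT_2 (0.0807) or WT_3 (0.0819). DTNA fell and SNTB1 rose at an FPKM under 1 in all libraries, and their calls were lost without WT_1 (0.105 and 0.143), WT_2 (0.0929 and 0.0703), WT_3 (0.10 and 0.147) or FT_2 (0.0686 and 0.0652), and that of SNTB1 also without FT_1 (0.0531) or FT_3 (0.0617).

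The sugar chain by which dystroglycan binds laminin is built by a series of enzymes. Their 18 tested genes held 8 that rose and 4 that fell, where 20.1% and 18.9% of all tested genes did. Without FT_1 8 rose and 6 fell, where 30.6% and 31.5% of all tested genes did. POMT2, which starts the chain, rose by 0.99 on the log2 scale (SE 0.14, edgeR adjusted p = 0.00336), and POMGNT1 and DPM2 by 0.58 and 0.63 (adjusted p = 0.00266 and 0.00542 from edgeR). The mannose donor genes DPM1 and GMPPB fell (-0.89 and -0.62, adjusted p = 0.00579 and 0.0260 from edgeR), although the call of GMPPB was lost without WT_1, WT_2, WT_3 or FT_3 (0.0822, 0.0778, 0.0862 and 0.0655).

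Among genes for the heparan sulfate chains that perlecan and agrin carry, 8 of 16 tested genes rose and 0 fell. The shares over all tested genes were 20.1% and 18.9%. Without FT_1 the counts were 13 and 2, against 30.6% and 31.5% of all tested genes. SULF2, which removes sulfate groups from finished chains, had an FPKM of 53.3, 57.0 and 56.2 in FT_1, FT_2 and FT_3 against 26.8, 27.9 and 29.6 in WT_1, WT_2 and WT_3. It rose by 1.14 on the log2 scale (SE 0.08, edgeR adjusted p = 7.55e-04), with all FT libraries close together. EXTL3 and B3GAT3, which act at the start of the chain, rose by 0.94 and 0.86 (adjusted p = 0.00104 and 0.0013 from edgeR).

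Of 13 tested enzymes that cut matrix proteins, 3 rose and 1 fell, where 20.1% and 18.9% of all tested genes did. Without FT_1 the counts were 6 and 4, against 30.6% and 31.5% of all tested genes. BMP1, a protease that processes perlecan and laminin chains, rose by 0.88 on the log2 scale (SE 0.09, edgeR adjusted p = 0.0015), and its FPKM was 66.7, 55.9 and 55.3 in FT_1, FT_2 and FT_3 against 35.0–36.3 in WT cells. PRSS12, the gene of neurotrypsin, which cleaves agrin, was at 7.21, 0.67 and 0.63 in FT_1, FT_2 and FT_3 against 0.09–0.13 (edgeR adjusted p = 0.0210). Like AGRN it was highest in FT_1, and its call was lost without WT_1, WT_2 or WT_3 (adjusted p = 0.0864, 0.0899 and 0.0781 from edgeR). PLG rose at an FPKM of at most 1.05 and was lost without FT_2, FT_3, WT_1, WT_2 or WT_3 (0.0756–0.108). PLAT, the tissue plasminogen activator gene, fell by 0.79 on the log2 scale (edgeR adjusted p = 0.0134, 0.0569 without WT_1).

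**Figure D5:**
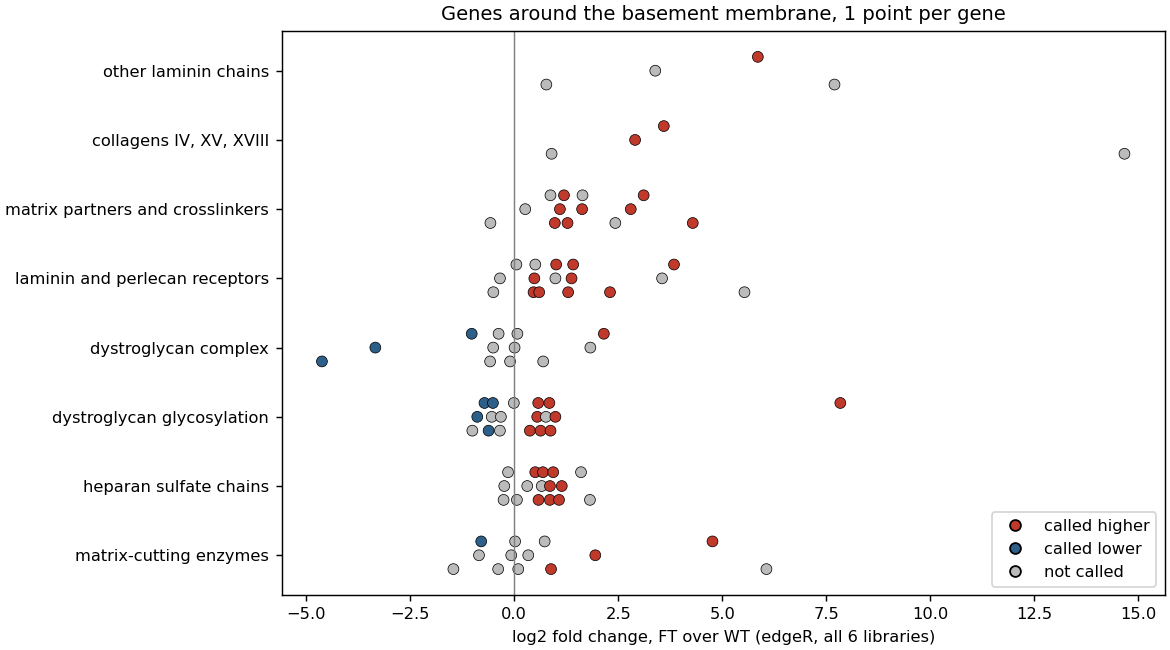
Log2 fold change of FT over WT cells from edgeR with all 6 libraries (horizontal axis), 1 point per tested gene, in 8 lists of genes around the basement membrane (vertical axis). Red points (40) were called higher, blue points (8) lower and grey points (48) neither, and the point at the far right is COL18A1, listed at 0 in WT cells, whose fitted value depends on the prior count.

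The plot of the 8 lists shows the 8 falls that edgeR called with all 6 libraries, and whether lists differed in their share of falls was not tested. Patterns were compared over the 6 libraries by the root mean square difference of centred log2 CPM (counts scaled by library total and TMM). The genes with the pattern most like a member were sought. For LAMC1, the chain common to most laminins, they were TTI1 (0.0250), SLC1A5 (0.0300) and WDR45B (0.0416). For AGRN they were C3 (0.380), KRT18 (0.486) and ADM2 (0.499), all highest in FT_1. AGRN was the called member with the largest rise in edgeR with all 6 libraries. Without FT_1, LAMA5 rose more than AGRN (log2 fold change 3.86 against 3.50 in edgeR).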

How the data were processed

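RNA-seq of 6 libraries was used, 3 FT and 3 WT, grouped by the genotype in the labels. The authors mapped the reads with HISAT, and the submitters' processing notes name HISAT2 2.0, StringTie 1.3.0, Bowtie 0.12.2 and a mouse build, although the gene identifiers are of cattle. The raw counts and the FPKM values the authors deposited, 1 column of each per library, were used as given, FPKM being scaled by gene length and library total. The table's coordinates name no build, and all 10 member intervals overlap the RefSeq gene of the same symbol in the ARS-UCD2.0 assembly. No other gene of the table overlaps a member. How reads shared by similar genes were counted is not given in the sources used here.

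Counts were tested with edgeR 4.0.16 in R 4.3.3 (quasi-likelihood, TMM scaling, filterByExpr), which kept 13482 of 17663 genes and all 10 members. edgeR was the main test because it fits counts and the methods of the study name it. Its standard errors were derived as the absolute log2 fold change over the square root of the quasi-likelihood F statistic. They are approximate, above all for genes with few counts. limma 3.58.1 on log2(FPKM + 1) with a mean FPKM of at least 0.5 (12247 genes) and DESeq2 1.42.0 on the counts were alternatives, with other scalings, no filter, the study's threshold, a replicate block and each library left out. Ratios within a library were tested by an exact two-sided permutation test over 20 assignments. At 48167642 to 69777641 counts per library, precision was limited by the spread between libraries, except for genes with few counts, such as AGRN and LAMC3 in WT cells, SNTB1, DTNA and COL18A1. Named genes are the members, up to 3 called rises and 3 called falls with the smallest p from each list, the tested type IV collagens and the genes of most like pattern. The members and lists were chosen with earlier results of these data known. Methods were tested on simulated counts. Values of some single genes in the companion and marker lists are not reported here, though the counts and sums over those lists include them.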

Additional observations from a re-analysis of the deposited data

How the results depend on the processing

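LAMA5, NID2 and HSPG2 were called higher in FT cells under all 16 alternatives, with log2 fold changes of 2.74–5.22, 1.08–1.33 and 1.92–2.25. AGRN stayed positive (2.08–8.24) and was called in 7 of the 15 alternatives that gave it a p. LAMA4 and LAMC1 were called in none of 16, and LAMB1, LAMB2 and NID1 were called in DESeq2 and without FT_1. The log2 fold change of LAMA2 was -0.43 in limma on log2(FPKM + 1) with and without the filter, -0.85 with a pseudocount of 0.1, -0.29 in limma on median-ratio scaled FPKM (0.41 in edgeR with median-ratio size factors) and -0.070 to 0.97 with a library left out. Companion genes called lower numbered 14 with library totals, 13 in DESeq2, 14 in limma with either pseudocount, 13 without the FPKM filter and 4 at the study's threshold. That threshold gave 1378 higher and 1208 lower genes, and limma without the filter 1744 higher genes and 26 higher companions. With 1 library left out, higher genes ranged from 1516 to 4215, lower genes from 1531 to 4337, higher members from 3 to 8, higher companions from 25 to 60 and lower companions from 3 to 23. The log2 ratio of LAMA4 over LAMA2 then ranged from -0.88 to 2.56 and that of LAMB2 over LAMB1 from -0.42 to 0.96. With FPKM + 1 in each value, the log2 ratio difference was 2.34 for LAMA5 over LAMA4, 1.93 for AGRN over LAMC1 and -0.16 for HSPG2 over AGRN. The causes were not tested. Samples with the same number did not deviate together (correlations across genes -0.00, -0.02 and 0.02). As FT_1 stands apart, this does not settle whether the numbers mark a pairing. With the replicate block, 1838 genes were higher and 1741 lower, 3 members and 29 companions were higher, 3 companions were lower, and LAMA2 was at -0.34. With 3 libraries a group of which 1 stands apart, differences in LAMA2, LAMA4 and LAMC1 were not resolved, and LAMB1, LAMB2 and NID1, not called with all 6 libraries in edgeR, were called in 2 of 16 alternatives each.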
